A study of Mus musculus with 8 samples.

Results

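Mouse spermatogonial stem cells that had been carried by serial transplantation and then cultured for 14 to 18 months were compared with cells of young donors cultured for 7 to 10 weeks. The comparison holds 5 of the 8 arrays of the series, chosen by their labels: 2 arrays of the serial-transplant line, whose label gives a donor age of 1500 days, and 3 arrays of cells from donors of 8 days (young short culture). The other 3 arrays hold cells from donors of 8 days that were also cultured for 14 to 18 months (young long culture). They entered the fit to share 1 estimate of the spread, and their values are given for some genes and lists only. A change given without them may be shared with the young long culture. The serial-transplant line and the young short culture differ in donor age, in passage through recipient testes and in culture time, and these cannot be told apart here. Per the series' design text the stem cells were taken out of their cultures before RNA was made, by a method the sources used here do not give. No strain, genotype or culture medium is given in the sources used here, nor whether 1500 days is the age of 1 animal or the summed time over several hosts. The sources do not tell separate donors or cultures from repeat arrays within a group, and p-values therefore cover only the array-to-array spread, part or all of which may be technical.

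Spermatogonial stem cells lie on the basement membrane of the seminiferous tubule and either renew themselves or enter differentiation. Renewal depends on GDNF (glial cell line-derived neurotrophic factor), made by somatic cells of the testis, which acts on germ cells through the receptor pair Gfra1 and Ret and keeps up the transcription factors Etv5, Bcl6b, Lhx1 and Id4. Retinoic acid drives the way out: it induces Stra8, and differentiating spermatogonia display the receptor Kit. In serial transplantation the cells are placed in the testes of recipients, allowed to rebuild spermatogenesis, recovered and placed again, so that only cells that renew themselves are carried on.

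Values are log2 signals, 1 per probe set and array, and a difference of 1 is a change of 2-fold. The array medians ran from 6.90 to 6.98, and with 2 and 3 arrays the precision is limited by their number. The germ cell identity given by the labels was checked against a few markers: Gfra1, Ret, Zbtb16, Ddx4 and Dazl all lay above the median signal of 6.94 on each of the 5 arrays. Of 42 genes of undifferentiated spermatogonia 38 had a young short-culture mean above that signal, and 35 a serial-transplant mean. So did 31 and 30 of 35 fibroblast genes. The check thus shows germ cell RNA and not the absence of other cells. The spermatid genes Acrv1 and Tnp1 lay low, Acrv1 between 4.21 and 4.79 and Tnp1 between 5.07 and 5.56, where the lower quartiles of the arrays ran from 5.32 to 5.52. Young short-culture array 2 stood apart from the rest, with correlations of 0.991 and 0.990 to the other arrays of its group, which correlated at 0.996. Serial-transplant array 2 lay farther from the mean of the young short culture than array 1, with 668 genes off by a log2 value of at least 1 against 307.

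Of 19938 genes, 818 (4.1%) were higher in the serial-transplant line and 1189 (5.96%) were lower at an adjusted p under 0.05 (limma, Benjamini-Hochberg over 28944 probe sets). The arrays of the 2 groups did not overlap in 8034 genes (40.3%), so a gene without overlap is common here. In probe sets the calls were 1037 higher (3.58%) and 1491 lower (5.15%), 2528 in all (8.73%), and over genes 10.1% passed in either direction. With each array centred on its median the split was 1294 higher and 1242 lower. Where a log2 change of at least 1 was also asked, 75 genes were higher (0.376%) and 380 lower (1.91%). The counts rest largely on serial-transplant array 2: without it 66 probe sets passed, 13 of them higher, and without array 1 there were 1528. With 1 array in the group, that array was assumed to vary like those of the other groups. A set of 47 genes passed whichever of the 5 arrays was left out, 12 higher and 35 lower. The 12 higher ones were Zdhhc2, Adgrf5, Adam22, Prtg, Agpat5, Ly6g6e, Fbln1, Klhl13, Plat, Srgap1, Chrdl1 and Frmpd1, named after their values were seen. Tex19.1, Tdrd9, Gzmc, Gzmd, Gzme, Srgn, Laptm5, Adh1, Aldh1a1, Igf2, Id2, Nid1, Wnt5a and Mt2 were among the 35 lower ones.

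The largest rise among the named genes was that of Fndc3c1, a fibronectin type III domain gene on the X chromosome. It read 6.78, 7.33 and 7.85 on the 3 young short-culture arrays and 9.49 and 9.77 on the serial-transplant arrays, a rise of 2.31 ± 0.31 log2 (limma SE; 4.96-fold, adjusted p = 0.00316). In the young long culture it read 7.77, 8.51 and 8.75, so that the serial-transplant arrays lay above both other groups. The difference from the young long culture, 1.29 ± 0.31 log2, did not pass (adjusted p = 0.359). Zdhhc2, a palmitoyltransferase gene, read 6.50, 6.33 and 6.65 in the young short culture and 8.35 and 8.41 in the serial-transplant line. That rise, 1.89 ± 0.17 (adjusted p = 0.000339), was the largest of those that held whichever array was left out. A2m, the protease inhibitor alpha-2-macroglobulin, rose by 1.95 ± 0.35, with serial-transplant values of 8.17 and 9.40, and Dmrt2, a DM-domain transcription factor, by 1.66 ± 0.24. Adgrf5, an adhesion G protein-coupled receptor, rose by 1.60 ± 0.17 and Adam22, a membrane protein of the disintegrin family without protease activity, by 1.53 ± 0.13. The other named rises, from 1.66 ± 0.20 for Lgals2 down to 1.28 ± 0.14 for Ly6g6e, took in the keratin Krt18, the mucin Muc1, the cation channel Trpc1, the acyltransferase Agpat5 and the mevalonate pathway enzyme Mvd.

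The largest falls were those of granzyme genes, which encode proteases of cytotoxic lymphocyte granules and lie in a cluster on chromosome 14. Gzmc read 9.59, 10.83 and 9.54 in the young short culture and 4.59 and 4.25 in the serial-transplant line, and Gzmd 9.29, 10.20 and 8.84 against 4.01 and 4.06. No array of one group came near the other, and the young long-culture means were as low, 4.21 for Gzmc and 4.04 for Gzmd. Since the serial-transplant means, 4.42 and 4.04, lie under the lowest of the arrays' lower quartiles, the fitted falls of 5.56 and 5.40 log2 can be cut short by background, and their order is open to it. Granzymes of the cluster are near-identical copies that can share probes, so a fall cannot be given to 1 of them with certainty. The germ cell gene with the largest fall was Tex19.1, which restrains retrotransposons and is needed for male meiosis. It read 9.95, 9.47 and 9.87 against 6.50 and 5.54, a fall by 3.74 ± 0.25 log2 (13.4-fold, adjusted p = 5.21e-05). Its mean in the young long culture was 6.25. Its close relative Tex19.2 read 7.77, 7.36 and 7.61 against 6.33 and 6.30 and fell by 1.26 ± 0.14. Both falls held without each of the 5 arrays in turn.

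Several of the other named falls were graded within each group. Serpina3n, a secreted protease inhibitor of inflammation, read 10.69, 12.39 and 10.83 in the young short culture and 9.42 and 7.90 in the serial-transplant line and fell by 2.64 ± 0.48 (adjusted p = 0.00813). Steap4, a metal reductase, read 11.26, 12.54 and 11.39 against 10.21 and 8.89, and Mme, the membrane peptidase neprilysin, 9.58, 11.22 and 9.70 against 8.49 and 7.31. Npy1r, a receptor for neuropeptide Y, read 7.99, 9.91 and 8.19 against 6.80 and 5.25. In these 4 genes young short-culture array 2 was the highest of its group and serial-transplant array 2 the lower of the pair. Their young long-culture means were 9.54, 10.03, 8.40 and 6.18. The groups did not overlap in them, but the rule that named them asked for this. Adh1, an alcohol dehydrogenase that can act on retinol, differed from them in lying close within the young short culture (9.30, 8.62 and 8.87), and its fall by 2.27 ± 0.19 passed with each array left out in turn. The prolactin family gene Prl2c5 fell by 2.69 ± 0.36.

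**Figure D1:**
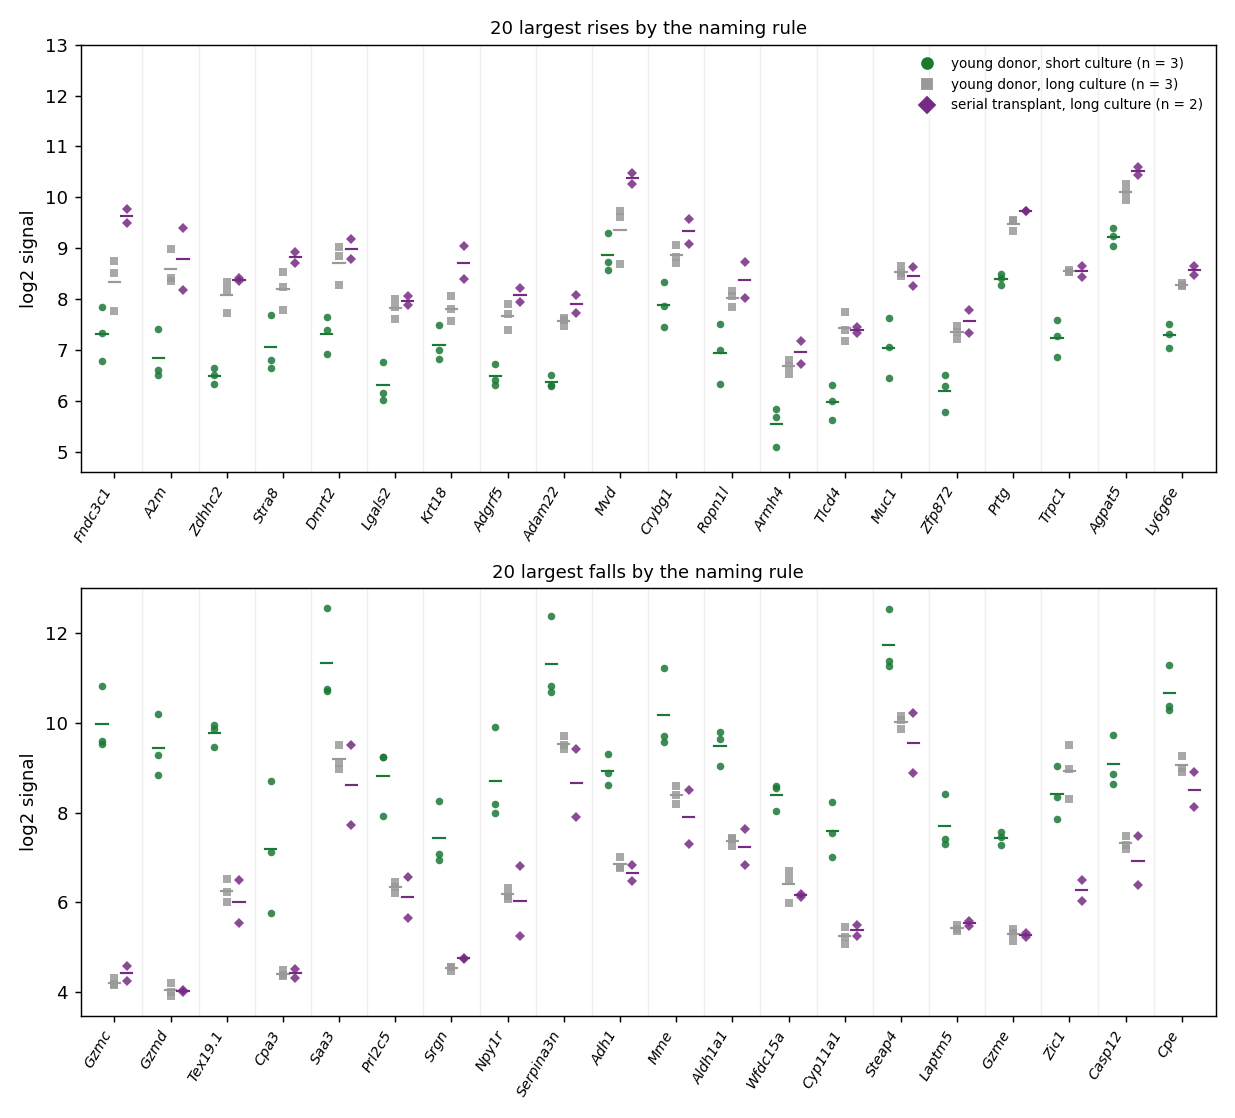
Log2 signals on all 8 arrays for the 20 largest rises (upper panel) and the 20 largest falls (lower panel) that the naming rule picked, with points for arrays and bars for group means. In Gzmc the serial-transplant and young long-culture arrays lie together near the bottom of the scale, while in Zic1 the serial-transplant arrays (6.49 and 6.04) lie alone below both other groups.

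One pattern went by position in the genome. Genes of chromosomes 8 and 15 were shifted upward as a whole in the serial-transplant line. Over 617 genes of chromosome 8 with a mean above the median signal, the median change was 0.31 log2, or 1.24-fold, and 79.7% of them had a positive change. Over 443 such genes of chromosome 15 it was 0.35 log2, or 1.28-fold, with 79.9% positive. On the remaining autosomes and the X chromosome the medians ran from -0.06 to 0.09, and 53.5% of the 9838 genes above the median signal off chromosomes 8 and 15 had a positive change. On the Y chromosome the median was 0.26 over 7 genes, and young short-culture array 2 alone lay at -0.31 there.

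The shift was present on each serial-transplant array. On chromosome 8 the array medians, as deviations from the young short-culture mean, were 0.28 and 0.33 in the serial-transplant line and 0.03, -0.09 and 0.05 on the young short-culture arrays. Set against the genes of the other chromosomes on the same array, both serial-transplant arrays stood 0.28 higher, whereas the young short-culture arrays stood between -0.04 and 0.04. On chromosome 15 the array medians were 0.34 and 0.37 against 0.04, -0.10 and 0.08. The groups thus did not overlap on either chromosome, although an exact permutation test of 2 against 3 arrays cannot go below a one-sided p of 0.1. The rise ran along the whole length of both: with the genes of each cut into 4 blocks by their order the medians were 0.35, 0.30, 0.25 and 0.34 on chromosome 8 and 0.40, 0.34, 0.37 and 0.34 on chromosome 15.

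The young long culture shares the young short-culture arrays as its base, so its values are given only side by side. Against the other chromosomes of the same array, chromosome 8 stood at -0.06, 0.16 and 0.09 in the young long culture, below the 0.28 of both serial-transplant arrays, and chromosome 15 at 0.13, 0.27 and 0.27, against 0.35 and 0.33. Gene by gene, the median difference between the serial-transplant line and the young long culture was 0.20 log2 on chromosome 8, with a lower quartile of 0.09, and 0.09 on chromosome 15, with a lower quartile of -0.01. Only RNA was measured.

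Of 955 genes on chromosome 8, 160 passed as higher (16.8%), and of 748 on chromosome 15, 157 (21.0%), where 2.75% of the 18235 genes elsewhere did. Together the 2 chromosomes held 317 of the 818 higher genes, which is 38.8%. Lower genes made up 71 of 1703 there (4.17%), against 6.13% elsewhere. The counts of higher genes on chromosomes 8 and 15 rest largely on serial-transplant array 2, as do those over all genes. The medians of the 2 chromosomes did not: they were 0.28 and 0.34 on array 1 and 0.33 and 0.37 on array 2. In the young long culture 74 of the 955 genes on chromosome 8 and 143 of the 748 on chromosome 15 passed as higher. Of the 18235 genes elsewhere 1000 did so there. Zdhhc2, Agpat5, Plat, Mvd, Nanos3 and Syce2 are genes of chromosome 8, and Lgals2, Krt18, Krt8, Fzd6, Ndufb9, Sqle and Dmc1 of chromosome 15. Not all genes there moved upward: Mt2, a metallothionein of chromosome 8, fell by 1.48 ± 0.16, and Myc, on chromosome 15, by 1.31 ± 0.21.

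**Figure D2:**
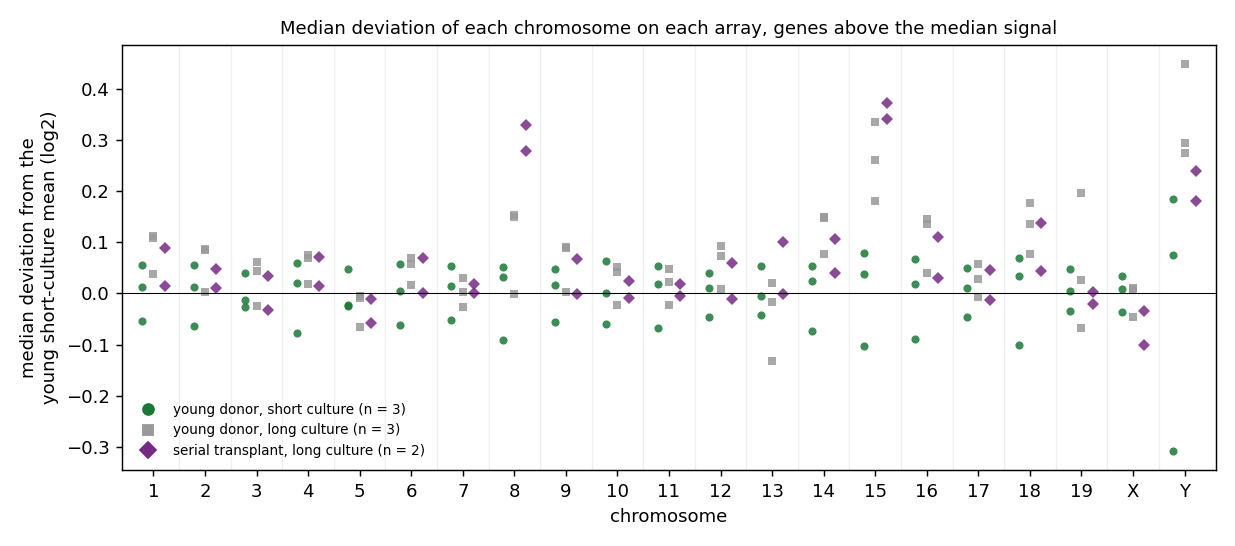
Median deviation of the genes of each chromosome from the young short-culture mean, in log2 units, with 1 point per array and genes above the median signal. On chromosomes 8 and 15 the serial-transplant arrays (0.28 and 0.33, 0.34 and 0.37) lie above every young short-culture array.

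Markers of undifferentiated spermatogonia moved in both directions. Of 42 measured, 3 were higher and 5 lower, where 4.1% and 5.96% of all genes were, with a median change of 0.10 against -0.01 over all genes. The receptor Gfra1 read 11.47, 11.13 and 11.40 in the young short culture and 11.43 and 11.32 in the serial-transplant line, and the arrays overlapped (0.04 ± 0.15, adjusted p = 0.923). Ret differed by 0.40 ± 0.21, the transcription factor Zbtb16 by 0.18 ± 0.13 and Etv5 by 0.12 ± 0.18, and these did not pass. The other GDNF-dependent factors were lower. Bcl6b read 11.06, 10.32 and 10.87 against 9.78 and 9.95 and fell by 0.89 ± 0.18 (adjusted p = 0.0143). Id4, an inhibitor of differentiation that marks the most primitive spermatogonia, read 9.15, 8.67 and 8.94 against 8.05 and 8.13 and fell by 0.83 ± 0.13 (adjusted p = 0.0057). Lhx1 fell by 1.39 ± 0.25, from 7.98 ± 0.57 (SD, n = 3) to 6.59 ± 0.19 (n = 2). These factors were low in the young long culture as well, with means of 9.75 for Bcl6b, 8.12 for Id4 and 6.68 for Lhx1.

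Eomes, a T-box factor of a subset of stem cells in the testis, read 7.65, 7.16 and 7.20 in the young short culture, 7.56, 7.00 and 7.30 in the young long culture and 5.92 and 6.20 in the serial-transplant line. It was thus low on the serial-transplant arrays alone, a fall by 1.27 ± 0.19 from the young short culture (adjusted p = 0.00404). Against the young long culture the difference was -1.23 ± 0.19 (adjusted p = 0.114), which did not pass. The members that rose were Neurog3, found in progenitors that begin to leave the stem cell state, by 0.81 ± 0.12, the RNA-binding protein Lin28a by 0.74 ± 0.12 and Nanos3 by 0.86 ± 0.15. Of these 8 genes, only Id2, an inhibitor of differentiation that read 6.32, 6.49 and 6.37 against 5.25 and 4.98 and so reached background, passed without serial-transplant array 2. In the list of GDNF and FGF signalling, 1 of 33 members was higher and 6 lower (21.2%, against 10.1% of all genes). Among the lower ones the receptor Gfra2 fell by 0.83 ± 0.17 and the receptor Fgfr2 by 0.49 ± 0.12. The chemokine Cxcl12, which is also in the list of senescence-associated secretion, fell by 0.86 ± 0.15. Its receptor Cxcr4 fell by 0.59 ± 0.13 and the cytokine Csf1 by 1.50 ± 0.30. None of the 7 passed without serial-transplant array 2.

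Of 26 genes of differentiating spermatogonia 8 rose and 2 fell, with a median of 0.20, where 4.1% and 5.96% of all genes did. Of the 8, Neurog3, Lin28a and Nanos3 belong to the list of undifferentiated spermatogonia too. Stra8, the retinoic acid target that opens the path to meiosis, read 6.65, 6.81 and 7.69 in the young short culture and 8.71 and 8.93 in the serial-transplant line, and rose by 1.77 ± 0.28 (3.41-fold, adjusted p = 0.00544). Kit read 8.53, 8.89 and 9.30 against 10.06 and 10.17 and rose by 1.21 ± 0.18 (adjusted p = 0.00411). In both genes every serial-transplant array lay above every young short-culture array, which the rule that named Stra8 asked for. The young long-culture means were 8.19 for Stra8 and 10.31 for Kit, against 7.05 and 8.90 in the young short culture. The transcription factor Sohlh2 rose by 0.71 ± 0.13, the X-linked homeobox gene Rhox13 by 0.60 ± 0.15, and Uchl1, a ubiquitin hydrolase of spermatogonia, by 0.64 ± 0.12. The ones that fell were Kitl, the ligand of Kit, which is made by somatic cells, and Aldh1a1, which makes retinoic acid from retinal. Kitl read 8.71, 9.14 and 7.80 against 7.16 and 6.58, a fall by 1.68 ± 0.31. Aldh1a1 read 9.64, 9.79 and 9.04 against 7.64 and 6.84, a fall by 2.25 ± 0.24 (adjusted p = 0.00103). Its mean in the young long culture was 7.37. Of the 10, Aldh1a1 alone passed without serial-transplant array 2.

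Meiotic genes had a median of 0.31. Of 34, 7 were higher and none lower (20.6%, against 10.1% of all genes). They were the synaptonemal complex genes Syce2 (0.94 ± 0.14) and Sycp3 (0.51 ± 0.13), the recombinase Dmc1 (0.75 ± 0.20), Spo11 (0.94 ± 0.26), which makes the double-strand breaks of meiosis, and Rec8, Rad21l and Tex15. The list had no higher member without serial-transplant array 2, 2 without serial-transplant array 1, 1 without young short-culture array 1 and 2 without young short-culture array 2. On chromosomes 8 and 15 lay 3 of the 7, and the other chromosomes gave a median of 0.24. Among 25 spermatid genes 1 was higher, Izumo1 (0.76 ± 0.14), needed for sperm and egg to fuse, and the median was -0.07. Core germ cell and piRNA genes had a median of 0.31, which was 0.24 without serial-transplant array 2. Of 31, 4 were higher (Tex101, Dppa5a, Nanos1 and Asz1) and 3 lower. The germ cell helicase Ddx4 differed by 0.21 ± 0.23 and the RNA-binding protein Dazl by 0.43 ± 0.13, and neither passed. The 3 lower ones were Tex19.1, Tex19.2 and Tdrd9, a helicase of the piRNA pathway that silences transposons. Tdrd9 read 8.29, 7.70 and 8.23 against 6.50 and 6.04 and fell by 1.80 ± 0.19 (adjusted p = 0.00103), and all 3 passed with either serial-transplant array left out.

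Pluripotency genes gave 4 higher and 2 lower of 27 (22.2%, against 10.1% of all genes), with a median of 0.06. Nanog, a gene of the naive pluripotent state, read 5.88, 5.97 and 5.85 against 5.87 and 6.02, and Pou5f1, which undifferentiated spermatogonia also express, 8.11, 7.88 and 8.26 against 8.30 and 8.72, and neither passed. The nuclear receptor Esrrb rose by 0.50 ± 0.11 and Dppa2, a chromatin factor of early embryos, by 0.80 ± 0.16, while the nuclear receptor Nr5a2 fell by 0.67 ± 0.17. Of 37 Hox genes, which set positional identity along the body axis, 3 were lower and 1 higher. This share of 10.8% is near the 10.1% of all genes. Hoxb9 read 8.06, 7.78 and 7.99 against 7.04 and 7.20 and fell by 0.83 ± 0.12 (adjusted p = 0.00401), Hoxb6 by 0.68 ± 0.15 and Hoxa5 by 0.71 ± 0.15. Hoxb13 rose by 0.41 ± 0.11. Neither list had a member past the test without serial-transplant array 2.

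Fibroblast and myofibroblast genes were lower in the serial-transplant line. Of 35 measured, 24 were lower and none higher, with a median of -0.84, and 33 had a negative change. In the young long culture 18 were lower and none higher, with a median of -0.58. Over all genes 10.1% passed in the serial-transplant line and 12.8% in the young long culture. The collagen gene Col1a2 read 11.57, 12.09 and 11.61 in the young short culture and 10.81 and 10.18 in the serial-transplant line and fell by 1.26 ± 0.20 (adjusted p = 0.00499). Pdgfra, the receptor for platelet-derived growth factor on mesenchymal cells, read 11.53, 12.45 and 11.48 against 10.43 and 9.20 and fell by 2.01 ± 0.33. The small proteoglycan Dcn fell by 1.58 ± 0.27, the intermediate filament Vim by 1.07 ± 0.18 and Cald1, which binds actin in contractile cells, by 1.33 ± 0.20. Serial-transplant array 2 was the lower of the pair in each of these genes, with a list median of -1.005 against -0.678 on array 1, and young short-culture array 2 the highest of its group, at 0.30 against -0.11 and -0.23. The mean level of the list was 9.40, 9.79 and 9.28 on the young short-culture arrays and 8.87 and 8.42 on the serial-transplant arrays, so these markers were lower and still well above background. The count of lower members was 0 without serial-transplant array 2 and 23 without array 1. In bulk RNA, fewer cells of a type and less RNA per cell cannot be told apart.

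Leukocyte genes showed the same direction in 17 of 33 members, with a median of -0.63. The 1 higher member was Kit, which mast cells and spermatogonia share. In the young long culture 16 were lower and 1 higher (median -0.57). Over all genes 10.1% passed in the serial-transplant line and 12.8% in the young long culture. Besides the granzymes, Srgn, the core protein of granule proteoglycans, read 7.08, 8.27 and 6.94 against 4.74 and 4.77, and Laptm5, a lysosomal protein of blood cells, read 7.30, 8.41 and 7.42 against 5.59 and 5.48. Ptprc, the common leukocyte antigen CD45, fell by 1.07 ± 0.16, and Cpa3, a carboxypeptidase of mast cells, varied widely within the young short culture (5.76, 8.71 and 7.12) and read 4.52 and 4.32 in the serial-transplant line. The mean level of the list was 6.31, 6.85 and 6.39 on the young short-culture arrays and 5.49 and 5.47 on the serial-transplant arrays. Adgre1, the macrophage marker F4/80, lay between 4.49 and 4.58 on all 5 arrays, in the range of background. Without serial-transplant array 2, 6 of the 17 passed. Of 10 Leydig cell genes 3 were lower (30%), with Cyp11a1, which starts steroid synthesis, at 8.24, 7.01 and 7.54 against 5.50 and 5.26. Among 14 endothelial genes none passed (median -0.02). Sertoli cell genes were mixed, 3 of 19 higher and 2 lower (26.3%). The iron carrier Trf rose by 1.21 ± 0.27 and Sox9 fell by 1.07 ± 0.21, while Amh and Fshr differed by -0.15 ± 0.17 and -0.01 ± 0.12, which did not pass. Simple epithelial genes had 4 of 19 higher (21.1%), the keratins Krt18 (1.61 ± 0.22) and Krt8 (0.60 ± 0.13), Muc1 (1.40 ± 0.26) and Cd24a (1.25 ± 0.34). Without serial-transplant array 2 the Leydig, Sertoli and epithelial lists had no called member, and the epithelial median went from 0.22 to 0.08.

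**Figure D3:**
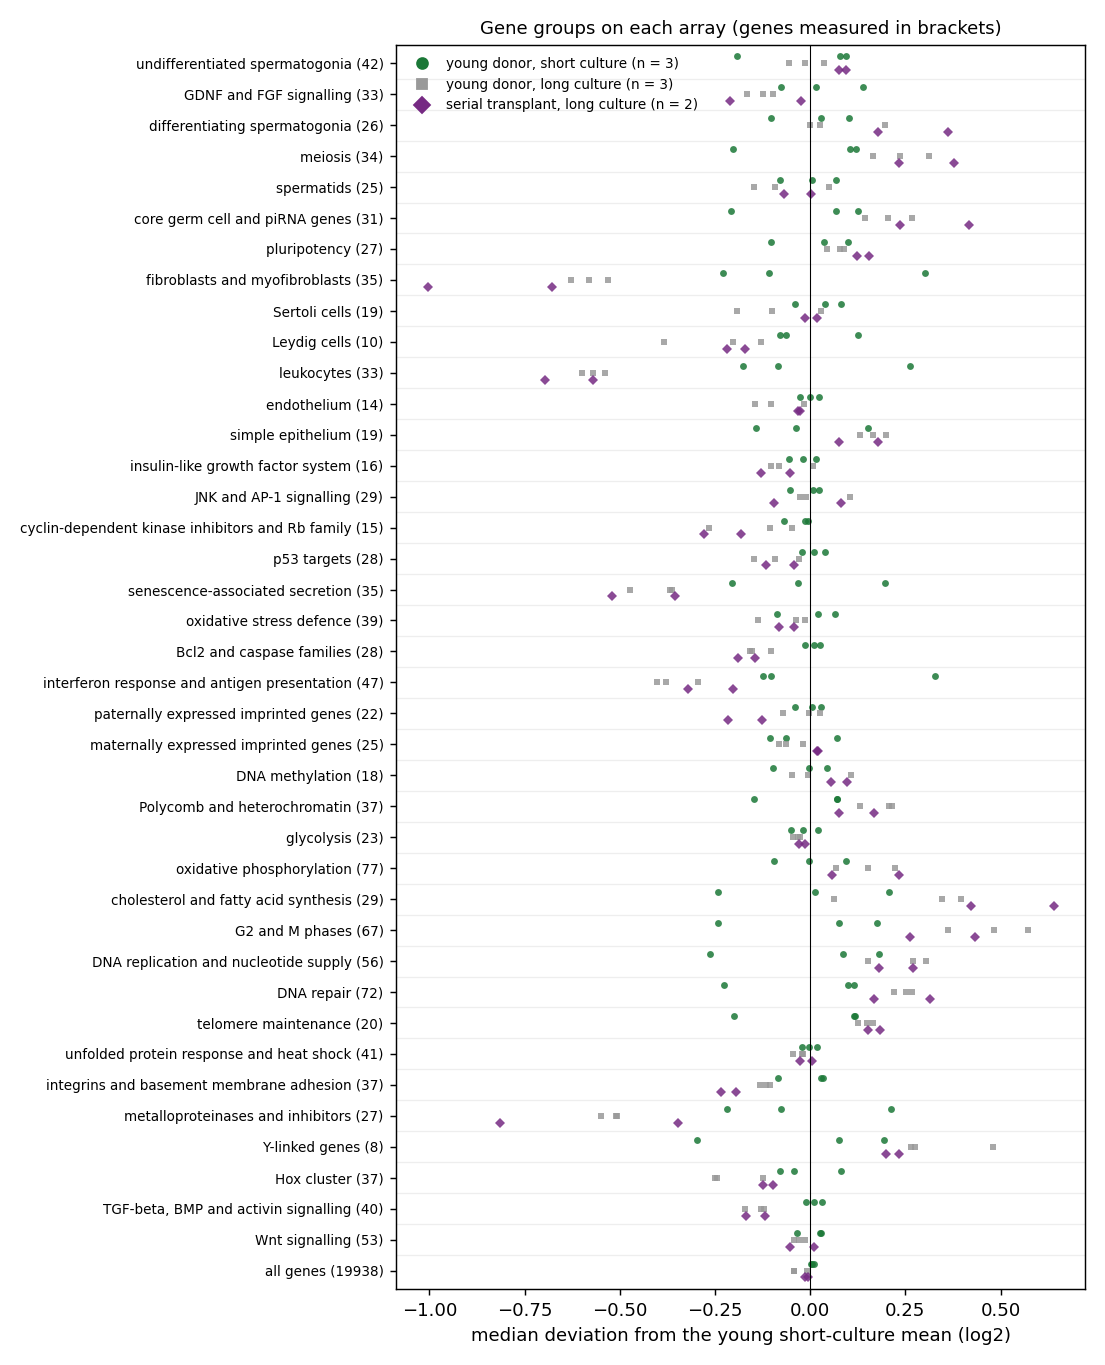
Median deviation from the young short-culture mean, in log2 units, of each gene group on each array, with the number of genes measured in brackets and all 19938 genes in the last row. The fibroblast group lies at -0.678 and -1.005 on the serial-transplant arrays, and the cholesterol and fatty acid group at 0.42 and 0.64.

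Secreted and matrix genes, many of them also made by mesenchymal cells, were lower together with the fibroblast list (24 of 35 lower, array medians of -0.678 and -1.005) and the leukocyte list (17 of 33 lower), whose part in these results was not tested. Of 35 genes of senescence-associated secretion 14 were lower and 1 higher (42.9%, against 10.1% of all genes), with a median of -0.44. The young long culture also had 14 lower and 1 higher (12.8% of all genes passed there). The chemokine Ccl2 read 10.79, 11.16 and 10.11 against 9.28 and 8.47 and fell by 1.81 ± 0.28, and the acute phase protein Saa3 fell by 2.72 ± 0.55. The member that rose was Hmgb2, a chromatin protein of chromosome 8 (0.85 ± 0.15). Of 27 metalloproteinases and their inhibitors 11 were lower and none higher (40.7%, median -0.46). They included Mmp2, which fell by 1.29 ± 0.20, Mmp3, by 2.02 ± 0.33, and the inhibitor Timp2, by 1.79 ± 0.31. These lists share members: Mmp2 is also in the fibroblast list and Mmp3 also in the secretion list. Integrins and basement membrane genes split into 4 higher and 13 lower of 37 (45.9%). The laminin chain Lama1 rose by 0.66 ± 0.11, while the basement membrane linker Nid1 fell by 1.12 ± 0.13 and the collagen receptor subunit Itga1 by 1.03 ± 0.14. Itga6 and Itgb1, the laminin receptor used to enrich spermatogonial stem cells, differed by 0.23 ± 0.13 and 0.10 ± 0.11 and did not pass. Among TGF-beta and activin genes 1 of 40 was higher and 6 lower (17.5%), with the receptors Tgfbr2 and Tgfbr3 down by 1.33 ± 0.21 and 1.68 ± 0.28. Of all these genes that fell, Nid1 was the 1 that passed without serial-transplant array 2.

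Cholesterol and fatty acid synthesis had the largest share of higher genes among the 39 lists: 12 of 29 were higher and 1 lower, with a median of 0.57. Over all genes 4.1% were higher and 5.96% lower. The chain runs from acetyl units through mevalonate and squalene to cholesterol. Mvd, which makes isopentenyl diphosphate from mevalonate diphosphate, read 8.73, 8.58 and 9.29 in the young short culture and 10.25 and 10.49 in the serial-transplant line and rose by 1.50 ± 0.28 (2.83-fold, adjusted p = 0.00931). Idi1, the next enzyme, rose by 1.02 ± 0.21, Fdps by 0.73 ± 0.19 and Fdft1, which makes squalene, by 0.56 ± 0.12. Sqle, the squalene epoxidase, read 10.20, 9.90 and 10.61 against 11.19 and 11.63 and rose by 1.17 ± 0.20 (adjusted p = 0.0072). In every one of these genes, which were named as having passed the test, both serial-transplant arrays lay above the 3 young short-culture arrays. Lack of overlap in either direction was found in 40.3% of all genes.

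Further down the chain Cyp51 rose by 1.01 ± 0.22, Msmo1 by 1.02 ± 0.20 and Dhcr7, which performs the last step, by 0.85 ± 0.19. The sterol isomerase Ebp went the other way and read 8.38, 8.98 and 8.05 against 7.47 and 7.45, a fall by 1.01 ± 0.21. Hmgcs1 (0.58 ± 0.20), Lss (0.73 ± 0.27) and the regulator Srebf2 (0.57 ± 0.19) did not pass. On the fatty acid side the desaturase Fads2 rose by 0.61 ± 0.12, Acly by 0.52 ± 0.14 and Acaca by 0.42 ± 0.12, and the synthase Fasn did not pass (0.57 ± 0.16, adjusted p = 0.0501). Chromosomes 8 and 15 held 3 of the 12, Mvd, Msmo1 and Sqle, and the 25 members elsewhere had a median of 0.56 with 9 higher. The group medians were 0.42 and 0.64 on the serial-transplant arrays and 0.06, 0.40 and 0.35 on the young long-culture arrays, where 4 of 29 passed as higher (6.1% of all genes did). Mvd itself read 8.69, 9.73 and 9.62 in the young long culture, and its difference from the serial-transplant line, 1.02 ± 0.28, did not pass (adjusted p = 0.426). The count of 12 became 9 without serial-transplant array 1, none without array 2, 7 and 8 without young short-culture arrays 1 and 2, and 18 without array 3.

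**Figure D4:**
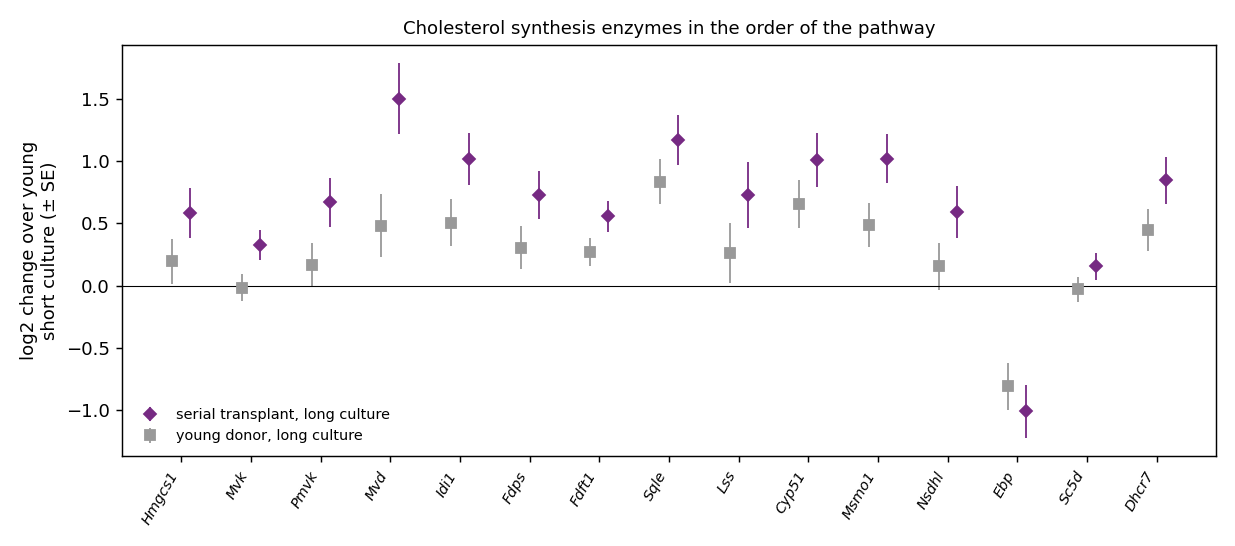
Log2 change over the young short culture, with limma standard errors, of 15 cholesterol synthesis enzymes in the order in which they act, for the serial-transplant line and for the young long culture; both changes share the young short-culture arrays. Mvd stands highest at 1.50 ± 0.28 in the serial-transplant line against 0.48 in the young long culture, and Ebp is the only enzyme of this row with a negative change in the serial-transplant line.

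Cell division genes were shifted in 1 direction by a small amount. Each of the 67 genes listed for the G2 and M phases lay higher on average in the serial-transplant line, with a median of 0.34. Of these 9 passed (13.4%), where 4.1% of all genes passed as higher. They included Ccnb2, a mitotic cyclin, which read 10.00, 9.72 and 9.96 against 10.39 and 10.66 and rose by 0.63 ± 0.14, the spindle checkpoint kinase Ttk (0.54 ± 0.14), the kinetochore protein Ndc80 (0.49 ± 0.14), the chromosomal passenger Cdca8 (0.56 ± 0.14) and Ckap2 (0.79 ± 0.13). The proliferation marker Mki67 read 10.28, 9.96 and 10.07 against 10.18 and 10.47 and did not pass. In the young long culture 32 of the 67 passed as higher (47.8%, against 6.1% of all genes) and the median was 0.47. Young short-culture array 2 was the lowest of all arrays for this list, at -0.24 against 0.17 and 0.08 on the other arrays of its group. The count of 9 became 3 without it and 0 without serial-transplant array 2. Replication genes had 6 of 56 higher (10.7%, median 0.23), and 2 without young short-culture array 2. DNA repair genes had 7 of 72 higher (9.72%, median 0.23, 0.11 without young short-culture array 2). Neither list had a member that passed as lower, though 6 and 11 had a negative change. Among the repair genes were the checkpoint kinase Atr (0.75 ± 0.15), Brca2 (0.58 ± 0.12) and Wrn (0.65 ± 0.11), and 3 of the 7 lie on chromosomes 8 and 15. Of 20 telomere genes Terf2 and Pinx1 were higher (10%). The telomerase subunit Tert, at 8.10, 7.58 and 8.27 against 8.58 and 8.64, missed the threshold (adjusted p = 0.0549). The replication, repair and telomere lists had no called member without serial-transplant array 2.

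Mitotic genes can share a short promoter element, the cell cycle homology region (TTTGAA, searched on both strands). In the RefSeq promoters of assembly GRCm38.p6, which run from 250 bases before the start to 50 after it, TTTGAA was found in 40 of the 56 G2 and M members that have an entry (71.4%) and in 17.3% of the 15563 genes with one. A match is a string of letters and not a shown binding site. Elements of other lists were searched too. The sterol response element was found in 0 of 22 promoters of the cholesterol and fatty acid list, 9 of them of members that passed. Only 10 of the 15563 genes held it, too few to tell the list from all genes. The E2F site, searched in separate forms, was found in 9 and 8 of 47 promoters of the replication list, against 273 and 130 of the 15563 genes. Each form was held by 1 of 5 members that passed. Of the 8 G2 and M members with an entry that passed, 6 held TTTGAA: Ccnb2, Ttk, Ndc80, Cdca8, Ckap2 and Hmmr. This is about the share of the whole list, so the match did not set the called members apart. The stretches around the match follow for a gene off chromosomes 8 and 15, Ccnb2 (chr9:70421696-70421741, minus strand, 167 bases before the start), and for one on chromosome 8, Ckap2 (chr8:22185895-22185940, minus strand, 101 bases before the start), with the element in capitals.
Ccnb2: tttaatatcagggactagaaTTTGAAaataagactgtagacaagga
Ckap2: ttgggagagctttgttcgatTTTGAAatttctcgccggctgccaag

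Interferon response and antigen presentation genes were more often lower than higher, 11 against 3 of 47 (29.8%, against 10.1% of all genes), with a median of -0.20. Ifit3, an antiviral protein induced by interferon, read 6.96, 8.55 and 7.36 against 6.15 and 5.49 and fell by 1.80 ± 0.37 (adjusted p = 0.0134). B2m, the light chain of class I histocompatibility molecules, read 12.31, 12.94 and 12.24 against 11.71 and 10.79 and fell by 1.25 ± 0.26. Irf8, a transcription factor of chromosome 8, rose by 1.04 ± 0.18. Young short-culture array 2 was the highest array for the list, at 0.33 against -0.10 and -0.12, and the count of lower members was 11 without it as well. The fibroblast and leukocyte lists also moved, and their part in this result was not tested. None passed without serial-transplant array 2. The interferon-stimulated response element (searched as GAAA, any 2 bases and GAAA again, on both strands) was found in 15 of 35 promoters of the list (42.9%) and in 3.89% of all genes with a promoter. Of 8 members with an entry that passed, 4 held it, and Ifih1 among them was higher rather than lower. The 2 copies before Ifit3 (chr19:34583353-34583402 and chr19:34583387-34583436, plus strand, 156 and 122 bases before the start) and the copy before B2m (chr2:122147528-122147577, plus strand, 139 bases before the start) show the element in capitals, on the opposite strand in Ifit3.
Ifit3 first copy: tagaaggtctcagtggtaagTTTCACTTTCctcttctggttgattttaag
Ifit3 second copy: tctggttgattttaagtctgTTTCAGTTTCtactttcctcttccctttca
B2m: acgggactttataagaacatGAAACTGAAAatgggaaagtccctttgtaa

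Cell death and stress genes were lower more often than higher, beside the lower fibroblast and leukocyte lists, whose part in this was not tested. Of 28 members of the Bcl2 and caspase families 9 were lower and 1 higher (35.7%, against 10.1% of all genes). Casp12 read 8.86, 9.72 and 8.65 against 7.47 and 6.38 and fell by 2.15 ± 0.32 (adjusted p = 0.00445), Casp4 fell by 1.97 ± 0.31 and the initiator Casp8 by 1.22 ± 0.23. Mlkl, the effector of necroptosis, was the member that rose, from 5.59, 5.69 and 5.95 to 6.52 and 6.68 (0.86 ± 0.14). It is among the genes of chromosomes 8 and 15, and no member elsewhere was higher. Among 28 p53 targets 8 were lower and 1 higher (32.1%). Zmat3 was down by 1.13 ± 0.18, the receptor Eda2r by 1.46 ± 0.24 and Fas by 1.64 ± 0.43. The cell cycle inhibitor locus Cdkn2a read 8.36, 8.45 and 8.40 against 8.63 and 8.64 and differed by 0.23 ± 0.11, which did not pass. In the list of cyclin-dependent kinase inhibitors and the Rb family 1 of 15 was higher and 3 lower (26.7%). Cdkn2c fell by 0.89 ± 0.17, Cdk6 by 1.01 ± 0.19, and Rb1 rose by 0.50 ± 0.14. Of 39 oxidative stress genes 7 were lower and 2 higher (23.1%), with the glutathione transferase Gsta4 down by 1.24 ± 0.16. In the JNK and AP-1 list 1 of 29 was higher and 1 lower (6.9%). The neural JNK gene Mapk10 read 9.22, 8.98 and 9.12 against 8.46 and 7.84, a difference of -0.96 ± 0.29 (adjusted p = 0.0638). None of the called genes of these lists passed without serial-transplant array 2.

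Oxidative phosphorylation genes had 11 of 77 higher and none lower (14.3%, against 10.1% of all genes), with a median of 0.17. Of the 11, 7 lie on chromosomes 8 and 15, among them Ndufb9 (0.84 ± 0.11), a subunit of complex I, and Cox4i1 (0.61 ± 0.13), of cytochrome oxidase. The 69 members on other chromosomes had 4 higher and a median of 0.14. Glycolytic genes had 1 of 23 higher and 4 lower (21.7%), with Pgk1 down by 0.83 ± 0.11. In the chromatin lists fewer genes passed than the 10.1% of all genes. Of 18 DNA methylation genes 1 was higher and none lower (5.56%), Tet3, which oxidises methylated cytosine, by 0.64 ± 0.12. Of 37 Polycomb and heterochromatin genes 2 were higher and none lower (5.41%), among them the methyltransferase Ezh2 by 0.55 ± 0.15. Of 53 Wnt genes 3 were higher and 5 lower: the receptor Fzd6, on chromosome 15, rose by 1.15 ± 0.16, the feedback inhibitor Axin2 by 0.66 ± 0.12, and Wnt5a fell by 1.11 ± 0.13 (adjusted p = 0.00172), which held without each array in turn. The Wnt list thus had 15.1% past the test, against 10.1% of all genes. Unfolded protein response and heat shock genes had 1 higher and 1 lower of 41 (4.88%), and the 8 Y-linked genes none. Of all the members of these lists, Wnt5a was the 1 that passed without serial-transplant array 2.

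Among growth factor and imprinted genes, Igf2 lay lower on the serial-transplant arrays than on the arrays of either young culture. Igf2, a fetal growth factor expressed from the paternal allele, read 10.40, 10.03 and 10.10 in the young short culture, 10.20, 9.79 and 10.16 in the young long culture and 8.88 and 8.17 in the serial-transplant line. Both serial-transplant arrays lay below all 6 arrays of young donors, a fall by 1.65 ± 0.20 log2 from the young short culture (3.13-fold, adjusted p = 0.00224) that held without each of the 5 arrays. Of 16 genes of the insulin-like growth factor system 6 were lower, with the signalling adaptor Irs1 down by 1.05 ± 0.18 and the clearance receptor Igf2r by 0.71 ± 0.15, and 1 higher, the binding protein Igfbp2 (0.70 ± 0.15). Of 22 paternally expressed imprinted genes 6 were lower and 2 higher (36.4%). The share past the test was 43.8% in the insulin-like growth factor list and 24% in the maternally expressed list, against 10.1% of all genes. Dlk1, a Notch-like membrane protein, fell by 1.41 ± 0.22 and the zinc finger gene Plagl1 by 1.17 ± 0.21, while the retrotransposon-derived Peg10 rose by 0.67 ± 0.17 and Ndn by 0.70 ± 0.14. Among 25 maternally expressed genes 5 were lower and 1 higher, Zdbf2 (0.79 ± 0.14), which stood in that list although it is known to be expressed from the paternal allele. Igf2 alone of these genes passed without serial-transplant array 2.

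Serial transplantation and donor age are what the serial-transplant line has beyond the young long culture, as far as the labels tell. Between those 2 groups limma called 0 of 28944 probe sets (0.0%) at an adjusted p under 0.05, while 2079 (7.18%) had an unadjusted p under 0.05. Alternative settings called between 0 and 22. The smallest adjusted p, 0.0627, was shared by Itga1, Zic1, Grin2a, Igf2 and Aldh1a3, all lower in the serial-transplant line. Zic1, a zinc finger transcription factor of the developing nervous system, read 9.05, 7.86 and 8.34 in the young short culture, 9.52, 8.30 and 8.96 in the young long culture and 6.49 and 6.04 in the serial-transplant line. It fell by 2.15 ± 0.35 from the young short culture (adjusted p = 0.00575) and differed by -2.66 ± 0.35 from the young long culture. Itga1 read 8.06, 7.84 and 7.80 in the young short culture, 8.04, 7.77 and 8.01 in the young long culture and 7.03 and 6.72 in the serial-transplant line, and its difference from the young long culture was -1.06 ± 0.14. Igf2 differed by -1.52 ± 0.20. Aldh1a3, which makes retinoic acid, differed by -1.06 ± 0.14 and the glutamate receptor subunit Grin2a by -0.84 ± 0.11, and neither passed against the young short culture.

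How many genes pass between the serial-transplant line and the young long culture depended on the setting: 22 probe sets with array weights, 15 with only the 2 groups in the fit, and 6 with 1 averaged value per gene. Zic1, Igf2 and Itga1 passed with array weights, gene means and only the 2 groups in the fit. In the other direction Clstn1, a calsyntenin, was higher in the serial-transplant line than in the young long culture by 0.82 ± 0.12 (adjusted p = 0.114), Krt8 by 0.75 ± 0.13 and Trf by 1.17 ± 0.27, and none of the 3 passed when all 8 arrays had equal weight. With array weights Clstn1 and Krt8 did (adjusted p = 0.0447 and 0.0451). Trf read 8.53, 7.83 and 8.78 in the young short culture, 7.94, 8.65 and 8.68 in the young long culture and 9.45 and 9.72 in the serial-transplant line, so both serial-transplant arrays lay above every array of young donors.

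**Figure D5:**
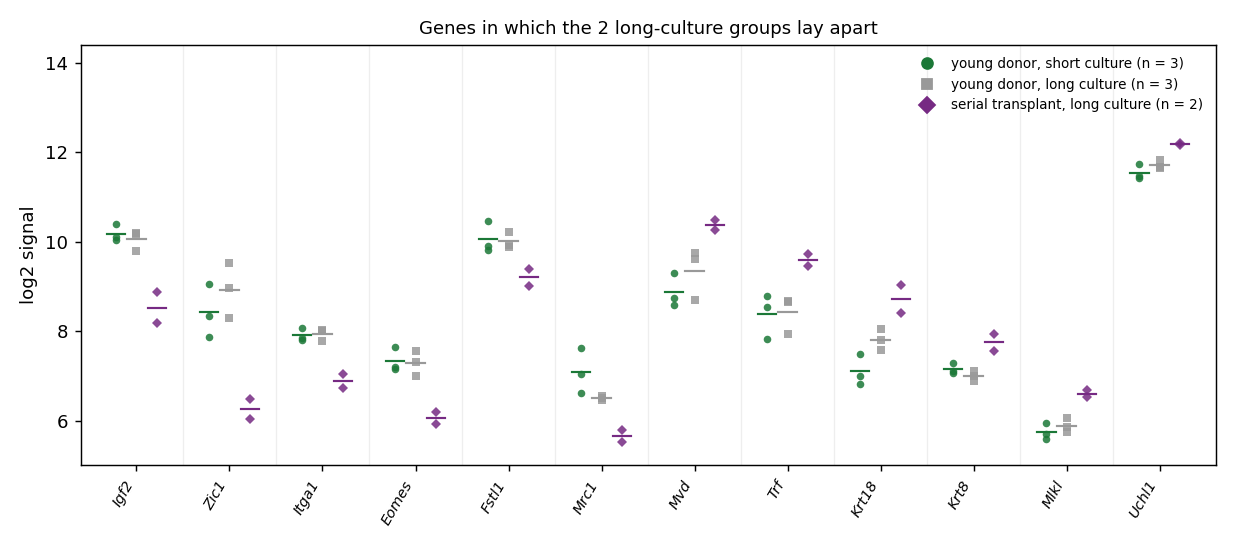
Log2 signals on all 8 arrays for 12 genes picked after their values were seen to show where the serial-transplant line and the young long culture lay apart, with points for arrays and bars for group means. Igf2 reads 8.88 and 8.17 on the serial-transplant arrays and at least 9.79 on the 6 arrays of young donors, a difference between the long-culture groups with an adjusted p of 0.0627 in limma without array weights or a block.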

How the data were processed

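The authors hybridised biotin-labelled cRNA, made from 100 ng of Trizol-extracted total RNA, to Affymetrix arrays, 8 in all, as the labels' protocols say. What the authors deposited are log2 signals from RMA in Partek 6.4, per the submitters' processing notes. Probe annotation came from the array platform, and symbols and chromosomes from RefSeq. Of 35557 rows, 6613 of control probes were left out and 28944 tested. Of these, 21789 carry 1 symbol, 1621 several and 5534 none. Each of 19938 genes is shown by its brightest probe set. limma 3.58.1 in R 4.3.3 fitted 1 coefficient per group to all 8 arrays (5 residual and 6.28 prior degrees of freedom), and p-values were adjusted by Benjamini-Hochberg over the 28944 probe sets, with a threshold of 0.05. Errors of changes are limma standard errors. The script was tested on simulated data.

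Named genes are the 20 largest rises and falls (passing the test, without overlap, brighter group above 6.94), up to 5 members per list by p, and a set of spermatogonial genes. Members named beyond this rule, to complete a count, a pathway or a family, were chosen after their values were seen. Members and lists were chosen with earlier results of these data known. Lists share members, so some genes are counted in several lists. Igf2 and Igf2r, for example, each stand in the insulin-like growth factor list and in an imprinted list. Lin28a stands among the pluripotency genes as well as in both spermatogonial lists. Promoters are those of RefSeq, GRCm38.p6, and 15563 genes have one. Alternatives were array centring, quantile normalization, control rows kept, no dim probe sets, gene means, an intensity trend, array weights, only the groups compared, a replicate block, a fold threshold and each array left out. The counts outside chromosomes 8 and 15 were added after seeing the data.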

Additional observations from a re-analysis of the deposited data

How the results depend on the processing

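Against the young short culture, 1079 probe sets passed with control rows kept, 1252 with only the 2 groups in the fit and 564 with a log2 change of at least 1, against 2528. The range with 1 array left out was 66 to 2817, and the lowest count came without serial-transplant array 2, after which 29 of 37 lists with called members had none. The other settings gave between 2292 and 2598, and 2098 of the 2528 lay outside chromosomes 8 and 15. With centred arrays 51.0% of calls were higher, against 41.0%. Of 182 named genes that passed, 161 did not without serial-transplant array 2, 31 without array 1, 56 with control rows kept and 41 with only the 2 groups, and none turned direction.

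Against the young long culture the count moved from 0 to 6 with gene means, 15 with only the 2 groups, 4 with the replicate block (Zic1, Igf2, Itga1 and Fndc3c1, the last at 1.52 log2, adjusted p = 0.0067) and 22 with array weights, and stayed at 0 with each array of the 2 groups left out. The young long over the young short culture gave 3260, 1542 with control rows kept, 5079 with array weights, 396 with a log2 change of at least 1, and 1085 to 3195 with 1 array left out.

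Replicate numbers are shared by the groups, but nothing ties equal numbers to a common source. Deviations of equally numbered serial-transplant and young short-culture arrays correlated at -0.19 and -0.30 over 2 pairs, and those of unequally numbered arrays at -0.24 to 0.30. The deviations of 2 arrays from their mean mirror each other, so these values cannot decide on pairing. The replicate block gave 2468 probe sets, 1005 higher and 1463 lower. The cause of these differences was not tested.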
